A study of Homo sapiens with 12 samples.

Results

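The transcripts described here are those of the human mitochondrial genome in prostate cancer cells after depletion of FOXA1, a transcription factor that opens nuclear chromatin in the prostate lineage. They were chosen by name, as every gene whose symbol starts with MT-, which gave 37 of the 60106 genes in each table: 13 mRNAs, 2 rRNAs and 22 tRNAs. RNA was sequenced from 12 libraries of PC3 and VCaP, a pair of established prostate cancer cell lines, and the study's title asks how FOXA1 relates to splicing genes and splicing. In each line 3 libraries came from cells transfected with a non-targeting siRNA (NSI) and 3 from cells transfected with an siRNA against FOXA1 (siFOXA1), all for 72 hours. PC3 cells received 20 nM siRNA in RPMI-1640, and their libraries came from polyadenylated RNA with the TruSeq stranded mRNA kit. VCaP cells received 40 nM siRNA in DMEM, and their libraries came from total RNA with the TruSeq total RNA kit. The labels do not say whether replicates were separate cultures, so p-values measure the spread between these libraries, which may be technical. Line, dose, medium, kit and strand setting move together, so they cannot be told apart in any comparison between the lines.

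The mitochondrial genome is a small circle that encodes subunits of the respiratory chain and of ATP synthase, together with the rRNAs and tRNAs that the organelle needs to translate them. Both strands are transcribed as long precursors in which tRNAs lie between the other genes. RNase P and ELAC2 cut the tRNAs out, which frees the rRNAs and mRNAs, and most of the mRNAs then receive a poly(A) tail. The exception is MT-ND6, the single mRNA of the strand that carries few genes. All factors for transcription, processing and translation in the organelle are encoded in the nucleus.

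On GRCh37 the reference chromosome M is 16569 bases long, and 28 of the 37 genes lie on its plus strand and 9, MT-ND6 and 8 tRNAs, on its minus strand. The tRNA genes that changed most after siFOXA1 in PC3 lie close against their neighbours. MT-TI, for isoleucine, and MT-TW, for tryptophan, start at the base after MT-ND1 and MT-ND2. MT-TD, for aspartate, lies between the minus-strand tRNA MT-TS1 and MT-CO2. MT-TG, for glycine, follows MT-CO3, and MT-TH, for histidine, follows MT-ND4. MT-TF, for phenylalanine, is the first gene of the plus strand and ends at the base before the rRNA MT-RNR1. All 6 are plus-strand genes. Close packing is not particular to them: MT-TV, MT-TL1 and MT-TT also start at the base after the gene before, and passed no threshold in PC3.

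Library totals were 123140099 to 188226483 counts in PC3 and 48187047 to 59839211 in VCaP. FOXA1 fell from 268 ± 25.5 to 171 ± 11.5 CPM (counts scaled to a common library total, with TMM factors; mean ± SD, n = 3) in PC3, to 63.8% of the control, and from 489 ± 46.9 to 80.5 ± 6.18 CPM in VCaP, to 16.5% (edgeR adjusted p = 0.00222 and 1.84e-07). The VCaP markers KLK3, KLK2, TMPRSS2 and ERG summed to 1928 to 2288 CPM in VCaP NSI libraries, 1011 to 1332 in VCaP siFOXA1 libraries and at most 0.464 in PC3. The PC3 markers CAV1, CD44, AXL and VIM summed to 1266 to 1339.9 CPM in PC3 NSI libraries, and 1529 to 1602 in PC3 siFOXA1 libraries. In VCaP they summed to 5.55 to 6.86 CPM with NSI and 24.4 to 25.8 with siFOXA1, where CD44 and VIM were called higher (adjusted p = 5.18e-07 and 0.00875), and their part in the VCaP results was not tested. Markers of leukocyte, endothelial and stromal cells (PTPRC, CD3E, VWF, DCN and LUM) summed to at most 0.303 CPM in PC3. In VCaP they summed to 12.2 to 17.9 CPM with NSI and 2.30 to 2.90 with siFOXA1 (LUM and VWF passed the test there), and their part in these results was not tested either. These 5 genes were each above 0 in at least 1 library of every group. A list of 7 nuclear RNAs without a poly(A) tail (RN7SK, RN7SL1, RN7SL2, RMRP, RPPH1, TERC and SCARNA2) summed to 68.4 to 144 CPM in PC3 NSI libraries and 96079 to 117436 in VCaP NSI libraries.

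Mitochondrial genes held a larger share of the counts in PC3 than in VCaP, and after siFOXA1 the share was higher in every VCaP library while the PC3 groups overlapped. In VCaP the 37 genes held 3.28, 3.29 and 3.02% in NSI libraries against 4.04, 4.16 and 4.69% in siFOXA1 libraries, so the groups did not overlap and the mean was 1.34 times the control. In PC3 they held 15.7, 13.1 and 13.1% in NSI libraries against 14.2, 13.4 and 14.9% in siFOXA1 libraries. The ratio of the PC3 means was 1.01, and the exact two-sided permutation test gave p = 0.8. With 3 libraries against 3 this test has 20 arrangements and gives no p below 0.1, the value reached in VCaP, and over the 32 share comparisons made the lowest Benjamini-Hochberg adjusted value was 0.213. In bulk RNA a larger share can come from more mitochondrial RNA per cell or from less of the other RNA, and these cannot be told apart.

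The classes differed in how they moved. The rRNA share in VCaP was 2.26, 2.23 and 2.07% in NSI libraries against 2.91, 2.91 and 3.62% in siFOXA1 libraries, 1.44 times the control on average with no overlap (exact p = 0.1). The highest value was that of siFOXA1 replicate 3. The VCaP mRNA share was 1.01, 1.06 and 0.938% in NSI libraries against 1.13, 1.24 and 1.06% in siFOXA1 libraries, 1.14 times the control, also without overlap (exact p = 0.1), with the nearest pair of libraries at 1.06% and 1.06%. The VCaP tRNA share was 0.00616 ± 0.000849% with NSI and 0.00620 ± 0.000200% with siFOXA1 (SD, n = 3; exact p = 1), and its groups overlapped.

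In PC3 the mRNA share was 12.9 ± 1.36% with NSI and 13.0 ± 0.656% with siFOXA1 (SD, n = 3; exact p = 1). The PC3 rRNA share was 0.843, 0.703 and 0.698% in NSI libraries against 0.992, 0.839 and 1.03% in siFOXA1 libraries (exact p = 0.2). The rRNA groups overlapped only through NSI replicate 1 and siFOXA1 replicate 2, and within each replicate number the siFOXA1 value was the higher one. The PC3 tRNA share was 0.297, 0.269 and 0.233% in NSI libraries against 0.241, 0.188 and 0.242% in siFOXA1 libraries (exact p = 0.3), with each siFOXA1 library below the NSI library of its number except in replicate 3.

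Within the mitochondrial counts alone, every siFOXA1 library of both lines had a higher rRNA portion and lower mRNA and tRNA portions than every NSI library of its line (each exact p = 0.1). The rRNA portion in PC3 was 5.36 ± 0.0378% with NSI and 6.72 ± 0.389% with siFOXA1, and in VCaP it was 68.4 ± 0.626% and 73.0 ± 3.72%. The mRNA portion was 92.7 ± 0.168% and then 91.7 ± 0.540% in PC3, and 31.4 ± 0.647% and then 26.8 ± 3.72% in VCaP. These are portions of 1 sum, so a rise in one class lowers the others. The tRNA portion was at most 2.05% in PC3 and 0.218% in VCaP.

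**Figure D1:**
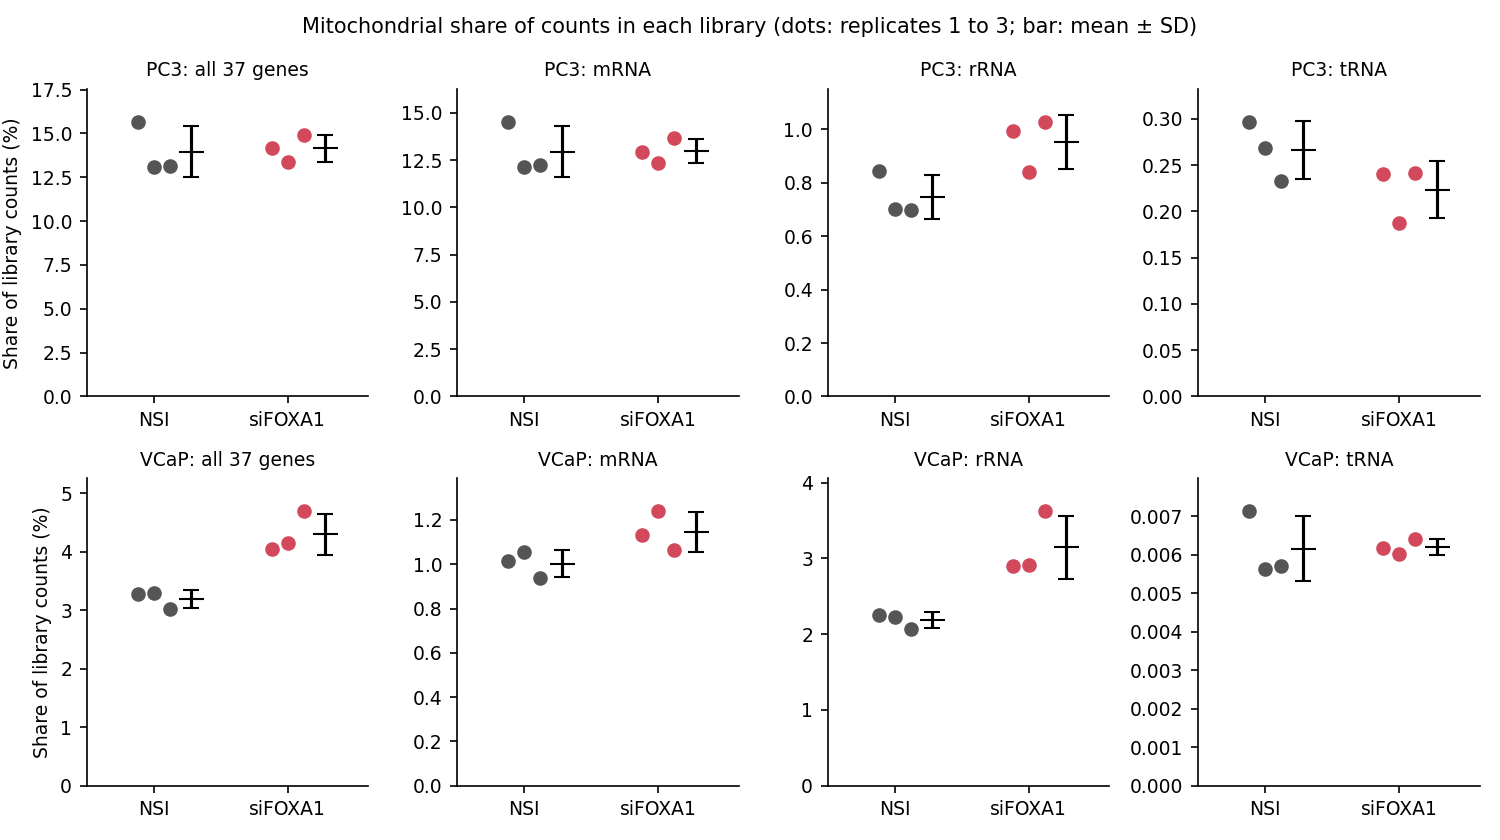
Share of each library's counts, in percent from 0, held by all 37 mitochondrial genes and by their mRNA, rRNA and tRNA classes in PC3 (top) and VCaP (bottom). Dots are replicates 1 to 3 from left to right and bars are mean ± SD. The VCaP siFOXA1 libraries lie above the VCaP NSI libraries for all genes (4.04% and higher against 3.29% and lower), and the PC3 groups overlap in every panel.

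The 13 mRNAs encode subunits of 4 complexes: complex I (MT-ND1 to MT-ND6 and MT-ND4L), complex III (MT-CYB), complex IV (MT-CO1 to MT-CO3) and ATP synthase (MT-ATP6 and MT-ATP8). Levels between genes are compared as CPM per kb of gene length in NSI libraries (mean ± SD, n = 3). In PC3 they ran from 3805 ± 403 for MT-ND3 to 20448 ± 2196 for MT-CO2, a range of 5.37 times. MT-CO2, MT-ATP8 (18629 ± 3238), MT-CO1 (17553 ± 1427), MT-ND4 (16891 ± 2706) and MT-ATP6 (16834 ± 1763) formed an upper group whose neighbours differed by less than their SDs. MT-CO3, MT-ND2, MT-ND4L and MT-ND1 lay between 13547 ± 866 and 9400.2 ± 925, and MT-ND4L had the widest spread, 10120.0 ± 3436. MT-CYB, MT-ND6, MT-ND5 and MT-ND3 were lowest, at 5969, 4514, 3971 and 3805 CPM per kb, and of these the neighbours MT-ND6, MT-ND5 and MT-ND3 differed by less than their SDs. MT-ATP8 and MT-ATP6 share 46 bases on chromosome M (8527 to 8572), and MT-ND4L and MT-ND4 share 7. A fragment over shared bases was divided between both genes, so the values within each pair are not independent.

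In VCaP the range of the 13 mRNAs was wider, 36.5 times. MT-CO3 led with 3609 ± 233 CPM per kb, followed by MT-CO1 (1397 ± 84.0) and MT-CO2 (961 ± 85.8), each above the next gene by more than either SD. MT-ND4 (819 ± 104), MT-ND4L (764 ± 104) and MT-ATP6 (647 ± 69.8) came next, and MT-ND5, MT-ATP8 and MT-CYB lay close together at 538, 513 and 508. MT-ND2 (403 ± 39.1) and MT-ND1 (366 ± 33.9) lay within an SD of MT-ND2 of each other, and MT-ND3 (139 ± 14.7) and MT-ND6 (99.0 ± 15.6) were lowest.

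The makeup of the mRNA pool with NSI is set side by side for the lines, with no test, since kit and strand setting differ between them. MT-CO3 made up 28.4 ± 2.41% of mitochondrial mRNA counts in VCaP NSI libraries and 8.07 ± 0.566% in PC3, a ratio of 3.52. MT-ND6 made up 1.79 ± 0.217% in PC3, where reads of either strand were counted, and 0.520 ± 0.0731% in VCaP, where strand was used. MT-CO1 was close in both, at 20.5 ± 0.661% and 21.6 ± 1.75%. Complex I genes held 42.3% to 46.0% of the pool in PC3 and 28.5% to 34.0% in VCaP. The means of complex IV genes were 39.2% and 56.6%, and those of ATP synthase genes 11.6% and 5.48%. After siFOXA1 the complex I and complex IV portions overlapped between groups in both lines. In PC3 the portion of complex III, which is MT-CYB alone, was 5.16 ± 0.103% and then 4.48 ± 0.299%, and that of ATP synthase was 11.6 ± 0.259% and then 10.8 ± 0.502%, both without overlap (exact p = 0.1).

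**Figure D2:**
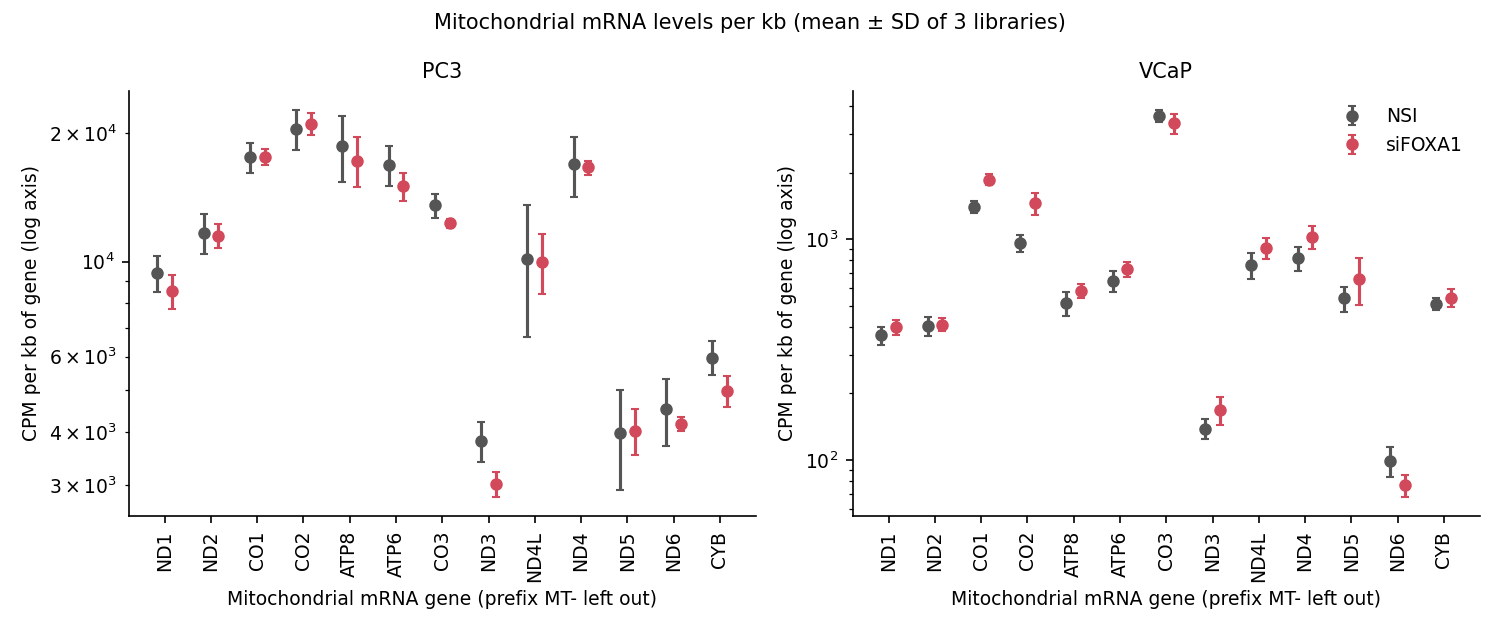
CPM per kb of gene on a log axis for the 13 mitochondrial mRNAs in PC3 (left) and VCaP (right), with NSI in grey and siFOXA1 in red, as mean ± SD of 3 libraries. MT-CO3 stands highest in VCaP at 3609 CPM per kb with NSI, and MT-CO1 and MT-CO2 are the VCaP genes with the largest gaps between the colours.

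In VCaP, 3 of the 13 mRNAs rose and 1 fell after siFOXA1, where a call is an adjusted p under 0.05 over all genes tested in that line; 45.8% of all genes passed, 22.5% as higher and 23.3% as lower. The share of mRNAs called was thus not above that of all genes. MT-CO2, a core subunit of complex IV that takes electrons from cytochrome c, had 675, 705 and 592 CPM in NSI libraries against 896, 972 and 1119 CPM in siFOXA1 libraries. The groups did not overlap, and the log2 fold change was 0.60 ± 0.10 (SE; adjusted p = 0.00121). MT-CO1, the catalytic subunit of the same complex, had 2102, 2059 and 2302 CPM in NSI libraries against 2686, 2881 and 3020.4 CPM in siFOXA1 libraries, again without overlap, with a log2 fold change of 0.41 ± 0.09 (adjusted p = 0.00378). Both calls held under each of the 15 alternatives run for VCaP. MT-CO3, the third complex IV subunit of this genome, did not pass: it had 2714, 2734 and 3041 CPM in NSI libraries against 2578, 2909.9 and 2368 CPM in siFOXA1 libraries, the groups overlapped and the log2 fold change was -0.11 ± 0.10 (adjusted p = 0.389).

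MT-ND4, a proton-pumping subunit of complex I, had 1221, 1201 and 964 CPM in NSI libraries against 1382, 1595 and 1261 CPM in siFOXA1 libraries. Its groups were apart only by the gap between NSI replicate 1 and siFOXA1 replicate 3, and its log2 fold change of 0.32 ± 0.12 passed narrowly (adjusted p = 0.0496). The call was lost in 8 of the 15 alternatives, among them the omission of any 1 library other than siFOXA1 replicate 3 (adjusted p = 0.00387 to 0.194 over the alternatives). MT-ND6, the minus-strand subunit of complex I, had 57.4, 55.9 and 42.6 CPM in NSI libraries against 44.7, 40.7 and 35.5 CPM in siFOXA1 libraries and fell by 0.37 on the log2 scale (SE 0.12; adjusted p = 0.0328). Its groups overlapped through NSI replicate 3, and the call was lost in 7 of the 15 alternatives, including the omission of NSI replicate 1 or 2 or of siFOXA1 replicate 2 or 3 (adjusted p = 0.000917 to 0.109). As a portion of mitochondrial mRNA counts MT-ND6 had 0.573, 0.551 and 0.437% in NSI libraries against 0.403, 0.331 and 0.320% in siFOXA1 libraries, without overlap (exact p = 0.1).

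The other 8 VCaP mRNAs passed no threshold. MT-ND3, a small complex I subunit, was at 48.0 ± 5.09 and 58.3 ± 8.59 CPM (log2 fold change 0.28 ± 0.11, adjusted p = 0.0631). MT-ND4L was at 227 ± 30.9 and 270.4 ± 29.9 CPM (0.25 ± 0.11, adjusted p = 0.0981), and MT-ND5 at 976 ± 125 and 1196 ± 287 CPM (0.29 ± 0.17, adjusted p = 0.189). For all 3 the groups overlapped. The ATP synthase genes MT-ATP8 and MT-ATP6 had log2 fold changes of 0.19 ± 0.10 and 0.18 ± 0.10, MT-ND1 0.12 ± 0.09, MT-CYB 0.09 ± 0.09 and MT-ND2 0.02 ± 0.09, with adjusted p from 0.136 to 0.844. Over all 13 the median log2 fold change was 0.19, beside 0.02 over all genes tested.

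In PC3 the mRNAs stayed closer to their controls: 1 of 13 fell and none rose (edgeR; DESeq2 also made 1 call, and 2 had an unadjusted p under 0.05), while 27.0% of all genes tested passed, 15.0% as higher and 12.1% as lower. MT-ND3 had 1259.5, 1476 and 1215 CPM in NSI libraries against 964, 1085 and 1086 CPM in siFOXA1 libraries, without overlap. It fell by 0.33 on the log2 scale (SE 0.10; adjusted p = 0.0428). The call was lost in 7 of the 15 alternatives, including the omission of any 1 library other than siFOXA1 replicate 2 (adjusted p = 0.00426 to 0.173). MT-CYB, the subunit of complex III that binds the quinones, had 7522, 6387 and 6523 CPM in NSI libraries against 6081, 5169 and 5844 CPM in siFOXA1 libraries, also without overlap, with a log2 fold change of -0.26 ± 0.10 (adjusted p = 0.0964). The PC3 replicate numbers were treated as a pairing found in the data, which the labels do not state. With the number as a block both MT-ND3 (adjusted p = 0.00426) and MT-CYB (adjusted p = 0.00952, beside 0.00952 to 0.241 over its alternatives) passed, as 42.7% of all genes then did.

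The other 11 PC3 mRNAs had log2 fold changes between -0.17 and 0.04. MT-ATP6 was at 11464 ± 1201 and 10209 ± 757 CPM (-0.17 ± 0.10, adjusted p = 0.268), MT-CO3 at 10621 ± 679 and 9642 ± 240.5 CPM (-0.14 ± 0.09, adjusted p = 0.258), and MT-ND1 at 8987 ± 884 and 8148 ± 742 CPM (-0.14 ± 0.11, adjusted p = 0.364). MT-CO1 and MT-CO2, which rose in VCaP, had 0.00 ± 0.09 and 0.04 ± 0.10 in PC3, with all groups overlapping. MT-ATP8 had -0.11 ± 0.15, MT-ND6 -0.11 ± 0.13, MT-ND2 -0.02 ± 0.10, MT-ND4 -0.02 ± 0.12, MT-ND4L -0.02 ± 0.23 and MT-ND5 0.02 ± 0.18. For MT-ND2, MT-CO1, MT-ND4L, MT-ND4 and MT-ND5 the sign turned under another scaling, so no direction is given for them.

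Both rRNAs rose in VCaP, where 22.5% of all genes were called higher. The rRNAs are the RNA cores of the mitochondrial ribosome, MT-RNR1 of the small subunit and MT-RNR2 of the large one. MT-RNR1 had 5877, 5637 and 5902 CPM in NSI libraries against 7401, 7379.6 and 7471 CPM in siFOXA1 libraries, with no overlap and little spread, and its log2 fold change was 0.35 ± 0.08 (adjusted p = 0.00628). MT-RNR2 had 16440.2, 15753 and 15633 CPM in NSI libraries against 21062, 21545 and 30320.2 CPM in siFOXA1 libraries, with no overlap and siFOXA1 replicate 3 well above the other 2, and its log2 fold change was 0.61 ± 0.15 (adjusted p = 0.00796). The count of MT-RNR2 per count of MT-RNR1 was 2.80, 2.79 and 2.65 in NSI libraries against 2.85, 2.92 and 4.06 in siFOXA1 libraries, so 1 library carried most of the rise in that ratio. Without siFOXA1 replicate 3 the log2 fold change of MT-RNR2 was 0.42 (adjusted p = 0.00389; 3.72e-06 to 0.0342 over the alternatives), and that of MT-RNR1 was 0.35.

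In PC3 neither rRNA passed with edgeR or DESeq2 without the replicate block, and both had an unadjusted edgeR p under 0.05. MT-RNR1 had 967, 936 and 724 CPM in NSI libraries against 1102, 1087 and 993 CPM in siFOXA1 libraries, without overlap, and a log2 fold change of 0.28 ± 0.12 (adjusted p = 0.121). MT-RNR2 had 7641, 6288 and 6348 CPM in NSI libraries against 8576, 7207 and 9040.2 CPM in siFOXA1 libraries, with overlap, and 0.29 ± 0.12 (adjusted p = 0.101). With the block both rose, MT-RNR1 with adjusted p = 0.00861 (0.00861 to 0.346 over the alternatives) and MT-RNR2 with adjusted p = 0.0137 (0.0137 to 0.356). Under that block 21.7% of all PC3 genes were called higher. In each replicate number the siFOXA1 library had the higher value for both rRNAs. PC3 libraries were made from polyadenylated RNA, and the rRNAs took 5.36% of mitochondrial counts there against 68.4% in VCaP. The difference in effect between the lines, VCaP minus PC3, was 0.10 ± 0.17 for MT-RNR1 and 0.34 ± 0.23 for MT-RNR2 (adjusted p = 0.765 and 0.344).

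Among the 37 genes the tRNAs had the largest fold changes in PC3: 11 of 22 fell and 1 rose, against 12.1% and 15.0% of all genes. With the replicate block 13 fell and 1 rose, against 21.0% and 21.7%. The reads behind these values come from libraries of polyadenylated RNA and need not be mature tRNA: a fragment that runs from an mRNA into a neighbouring tRNA was divided between both genes. Of the 14 plus-strand tRNAs 9 fell and 1 rose, and their summed share of the counts was 0.0827, 0.0680 and 0.0547% in NSI libraries against 0.0442, 0.0244 and 0.0440% in siFOXA1 libraries. The groups did not overlap, and the ratio of the means was 0.548 (exact p = 0.1). The split by strand was chosen after the values were seen, so this p-value only describes these libraries. For all 22 tRNAs together the shares overlapped (exact p = 0.3). Of the 8 minus-strand tRNAs 2 fell, and their share was 0.198 ± 0.0178% and then 0.186 ± 0.0196% (exact p = 0.5). PC3 counting ignored strand, so reads over a minus-strand tRNA can come from either precursor.

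MT-TI, MT-TW, MT-TD, MT-TG and MT-TH fell to between 26.4% and 31.3% of their control means, and in each of them no siFOXA1 library reached the lowest NSI library. MT-TH, the histidine tRNA after MT-ND4, had 112, 109.9 and 67.8 CPM in NSI libraries against 32.5, 12.3 and 38.0 CPM in siFOXA1 libraries, and fell by 1.81 on the log2 scale (SE 0.38; adjusted p = 0.00900). MT-TI, the isoleucine tRNA after MT-ND1, had 59.9, 50.5 and 33.3 CPM in NSI libraries against 14.4, 5.58 and 19.4 CPM in siFOXA1 libraries, and fell by 1.86 (SE 0.40; adjusted p = 0.0101). Both calls held under all 15 alternatives.

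MT-TG, MT-TD and MT-TW fell as far, and were named after their values were seen. MT-TG, for glycine, had 115, 93.6 and 73.3 CPM in NSI libraries against 30.1, 8.54 and 38.4 CPM in siFOXA1 libraries (log2 fold change -1.87 ± 0.45, adjusted p = 0.0167). MT-TD, for aspartate, had 113, 93.8 and 73.4 CPM in NSI libraries against 32.1, 5.90 and 36.1 CPM in siFOXA1 libraries (-1.92 ± 0.53, adjusted p = 0.0296). MT-TW, for tryptophan, had 70.8, 52.8 and 38.6 CPM in NSI libraries against 24.8, 4.88 and 21.1 CPM in siFOXA1 libraries (-1.67 ± 0.50, adjusted p = 0.0372). In all 5 genes siFOXA1 replicate 2 was the lowest library. Without it the log2 fold changes were -1.48 for MT-TH, -1.53 for MT-TI, -1.49 for MT-TG, -1.49 for MT-TD and -1.27 for MT-TW, each still past the threshold. The MT-TD call was lost without NSI replicate 1, NSI replicate 3 or siFOXA1 replicate 1 (adjusted p = 3.37e-05 to 0.0658 over the alternatives), and the MT-TW call without any 1 NSI library or siFOXA1 replicate 3 (8.92e-05 to 0.0904).

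MT-TF, the phenylalanine tRNA that opens the plus-strand precursor, was the single tRNA that rose. It had 13.5, 12.0 and 10.4 CPM in NSI libraries against 21.7, 18.2 and 18.3 CPM in siFOXA1 libraries, without overlap, and a log2 fold change of 0.69 ± 0.12 (adjusted p = 0.00465), and the call held under all 15 alternatives. Its neighbours are MT-RNR1 (0.28 ± 0.12), MT-TV, the valine tRNA between the rRNAs (0.16 ± 0.23, adjusted p = 0.642), and MT-RNR2 (0.29 ± 0.12). These 4 genes at the start of the plus strand had the 4 highest log2 fold changes of the 37 in PC3. MT-TL1, the leucine tRNA after MT-RNR2, had 189.7 ± 52.4 and 161 ± 36.4 CPM (-0.23 ± 0.22, adjusted p = 0.451).

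The other called tRNAs fell less. The minus-strand MT-TQ, for glutamine, whose gene overlaps MT-TI by 3 bases, had 7.47, 9.84 and 5.74 CPM in NSI libraries against 4.23, 4.0 and 4.43 CPM in siFOXA1 libraries (-0.86 ± 0.18, adjusted p = 0.00999), and its call held under all 15 alternatives. MT-TS2 and MT-TL2, a serine and a leucine tRNA directly after MT-TH, had -0.87 ± 0.21 and -0.78 ± 0.22 (adjusted p = 0.0170 and 0.0281), MT-TR, for arginine after MT-ND3, had -0.65 ± 0.17 (0.0226), and MT-TM, for methionine, -0.59 ± 0.17 (0.0311). None of these overlapped between groups, and these 4 were also named after their values were seen, as were those of the next paragraph other than MT-TP and MT-TY. MT-TS1, the minus-strand serine tRNA gene that lies against MT-CO1, had the highest level of the tRNA genes in PC3, where reads of either strand were counted. It had 582, 645 and 446 CPM in NSI libraries against 428, 376 and 432 CPM in siFOXA1 libraries and fell by 0.44 (SE 0.14, adjusted p = 0.0453). Without siFOXA1 replicate 1 the calls on MT-TS2, MT-TL2, MT-TR, MT-TM, MT-TS1 and MT-TD were lost, and 6 tRNAs passed.

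Of the 10 tRNAs that passed no threshold, with log2 fold changes from -0.49 to 0.16, 6 are minus-strand genes. MT-TP, for proline, and MT-TY, for tyrosine, the most abundant of them, were at 451 ± 33.7 and 424 ± 35.8 CPM (-0.09 ± 0.10) and at 285 ± 40.1 and 298 ± 48.7 CPM (0.07 ± 0.14). MT-TE, for glutamate, had -0.49 ± 0.21 and MT-TK, for lysine, -0.30 ± 0.15, and both fell with the replicate block (adjusted p = 0.0157 and 0.0492, beside 0.0138 to 0.272 and 0.0492 to 0.437 over their alternatives). The neighbours MT-TA, MT-TN, MT-TC and MT-TY on the minus strand had values between -0.07 and 0.07, although MT-TW, the plus-strand gene 7 bases from MT-TA, fell by 1.67.

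Position and base composition of the falling tRNAs are given as a description, with groups formed after the values were seen. Of all PC3 genes 12.1% were called lower and 15.0% higher. The 7 plus-strand tRNAs that come next after an mRNA of the same strand (MT-TI, MT-TW, MT-TK, MT-TG, MT-TR, MT-TH and MT-TT) had a median log2 fold change of -1.67 in PC3, and 5 fell. The other 7 plus-strand tRNAs had a median of -0.59, with 4 that fell and 1 that rose, and the 8 minus-strand tRNAs -0.08. Among those other 7 was MT-TD, which had the deepest fall (-1.92). The 5 with the deepest falls had a GC content of 23.5% to 36.2%, MT-TR, with 23.1%, fell less, and MT-TF had 40.9%. Other tRNA genes with a GC content between 23.5% and 36.2% changed less. MT-TL2, with 35.2%, had -0.78. MT-TK and MT-TP, with 32.9% and 33.8%, had -0.30 and -0.09 and passed no threshold. The 3 groups had median GC contents of 32.9%, 40.9% and 43.0%. Base composition and position move together here.

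Other RNAs without a poly(A) tail also had lower means in PC3 siFOXA1 libraries. The list of 7 summed to 68.4 to 144 CPM with NSI and 48.4 to 91.6 with siFOXA1, with overlap. All 7 had a lower mean and their median log2 fold change was -0.91, beside 0.02 for all genes tested. Of them TERC, the telomerase RNA, fell (-1.44 ± 0.28, adjusted p = 0.00686), 1 of 7 against 12.1% of all genes, and 5 did with the replicate block, against 21.0%. In VCaP the list summed to 96079 to 117436 CPM with NSI and 113341 to 134629 with siFOXA1, and TERC rose (0.71 ± 0.09, adjusted p = 0.000139), 1 of 7 against 22.5% of all genes. Its part in the tRNA result was not tested.

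**Figure D3:**
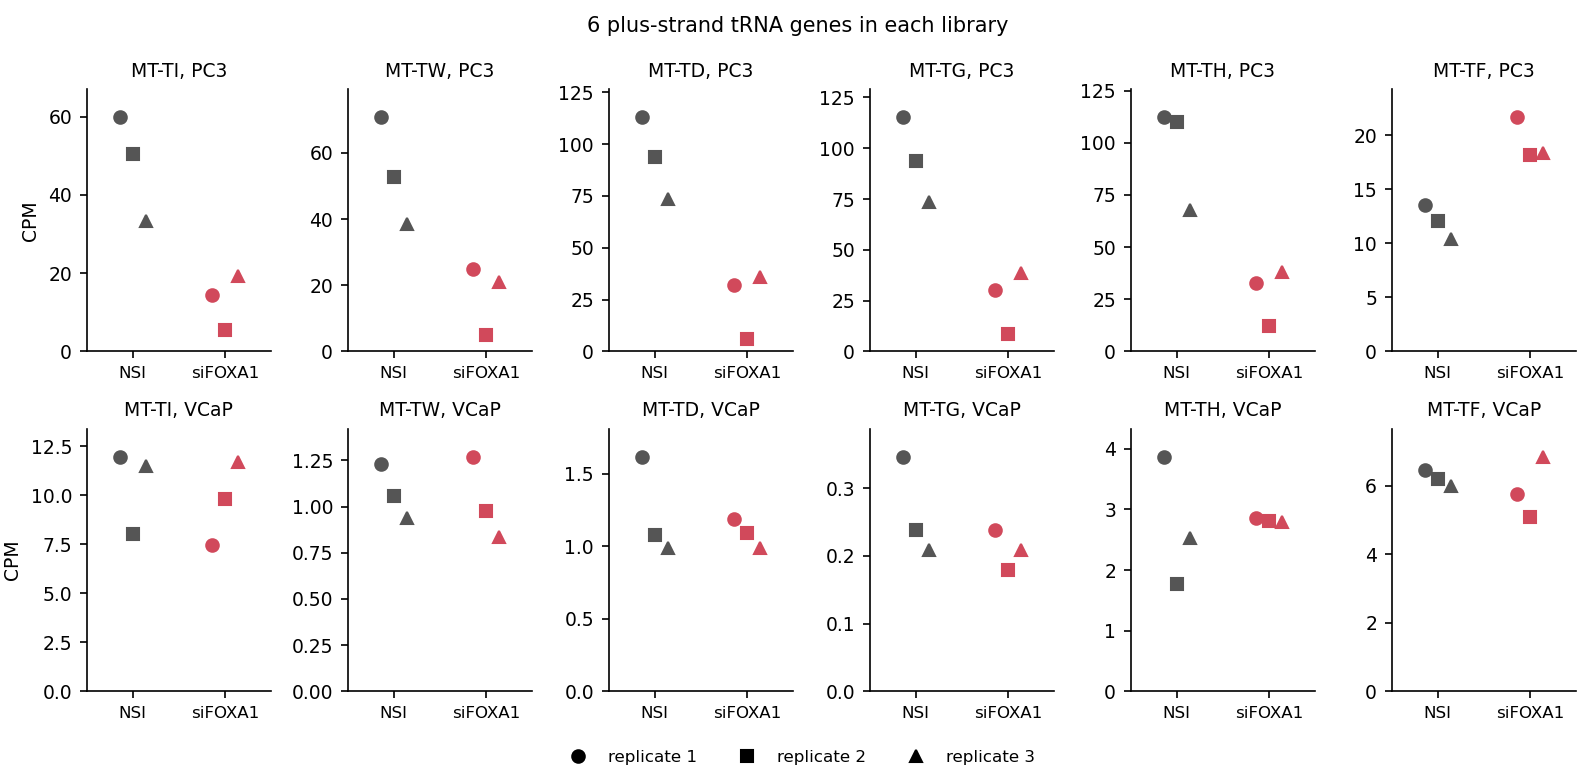
CPM, on axes from 0, of 6 plus-strand tRNA genes in each PC3 library (top) and VCaP library (bottom), with NSI in grey and siFOXA1 in red and one symbol per replicate number. In PC3 the siFOXA1 values of MT-TI, MT-TW, MT-TD, MT-TG and MT-TH all lie below the NSI values, with replicate 2 lowest, and those of MT-TF all lie above, while the VCaP groups overlap at lower levels.

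In VCaP none of the 22 tRNAs passed the threshold with edgeR or with DESeq2, against 45.8% of all genes, none had an unadjusted p under 0.05, and their levels were low. Their NSI means ran from 0.265 to 12.3 CPM, against 6.12 to 558 CPM in PC3. A tRNA gene had a median of 59.9 counts in a VCaP library and 5791 in a PC3 library. MT-TV, MT-TI and MT-TL1 were the highest in VCaP. MT-TI had 12.0, 8.02 and 11.5 CPM in NSI libraries against 7.46, 9.79 and 11.7 CPM in siFOXA1 libraries, with overlap, and a log2 fold change of -0.12 ± 0.18 (adjusted p = 0.617). MT-TV and MT-TL1 had 0.07 ± 0.19 and 0.07 ± 0.14, also with overlap. MT-TS1, MT-TP and MT-TY, which led in PC3, were at 0.377, 3.17 and 0.631 CPM with NSI. Over the 22 genes the log2 fold changes ran from -0.33 to 0.37 with standard errors of 0.12 to 0.33, so small changes were not detectable. In PC3, at higher counts, the standard errors of these genes were 0.10 to 0.53.

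The effect of siFOXA1 differed between the lines for 6 of the 37 genes in a test of the difference itself, VCaP minus PC3, which used all 12 libraries. Of all genes tested 22.2% differed, 11.3% as higher and 11.0% as lower in VCaP, so 6 of 37 was not above the background. That split of all genes depended on scaling, with 3427 higher and 3334 lower by TMM and 2643 and 3880 by library size alone. The difference was 1.87 ± 0.51 for MT-TH (adjusted p = 0.0159) and 1.75 ± 0.48 for MT-TI (0.0161), both of which fell in PC3. For MT-TM it was 0.98 ± 0.26 (0.0148), and for MT-TF, which rose in PC3, it was -0.75 ± 0.18 (0.00736). For the mRNA MT-ND3, which fell in PC3 and had 0.28 ± 0.11 in VCaP, it was 0.63 ± 0.17 (0.0134), and for MT-CO2, which rose in VCaP, 0.58 ± 0.18 (0.0327). MT-TD, MT-TG and MT-TW fell as far as MT-TH in PC3, but their differences of 1.76 ± 0.78, 1.55 ± 1.11 and 1.62 ± 0.73 did not pass (adjusted p = 0.127, 0.374 and 0.134).

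**Figure D4:**
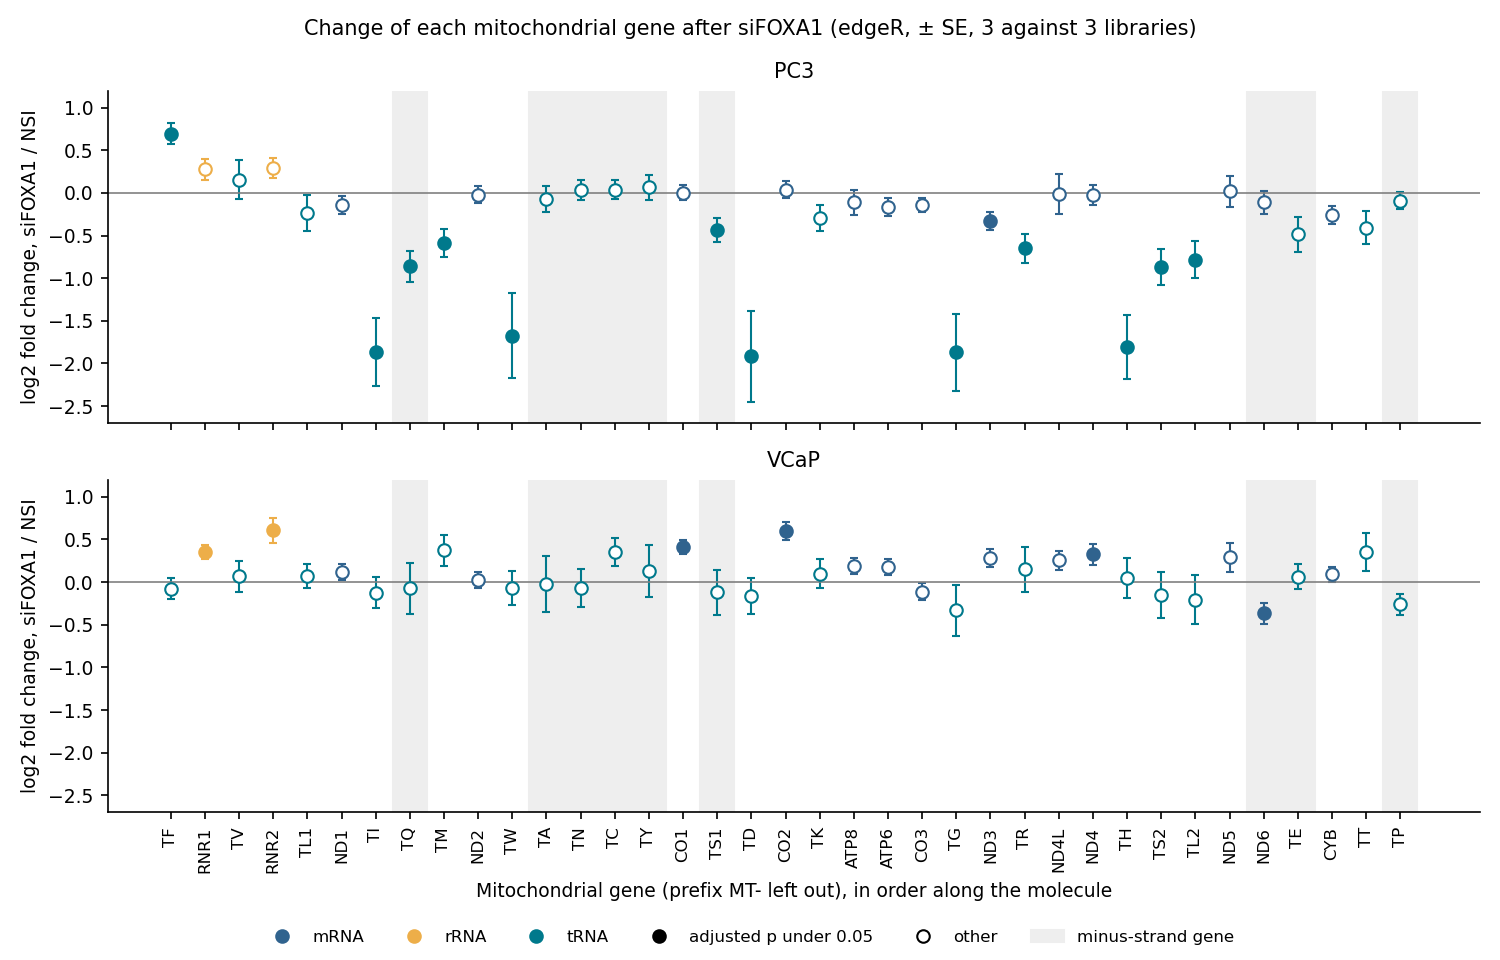
Log2 fold change of siFOXA1 against NSI, with standard error, for the 37 mitochondrial genes in their order along the molecule in PC3 (top) and VCaP (bottom). Colours separate mRNA, rRNA and tRNA genes, and filled symbols passed an adjusted p of 0.05. The PC3 panel shows its deepest falls, from -1.67 to -1.92, at the tRNA genes MT-TI, MT-TW, MT-TD, MT-TG and MT-TH. The PC3 mRNAs lie between -0.33 and 0.04. The VCaP panel shows its called genes at the rRNAs, MT-CO1, MT-CO2, MT-ND4 and MT-ND6.

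Copies of mitochondrial genes lie in the nuclear genome as pseudogenes, and reads that map to both places were divided between them. The tables held 416 such copies of mRNA or rRNA genes, which took 0.685 ± 0.0180% of the counts in PC3 and 0.0476 ± 0.00154% in VCaP with NSI. A run of 7 copies on chromosome 1 (GRCh37, 564442 to 570302) carried 97.6% and 92.1% of that. The 3 highest were MTATP6P1, MTCO1P12 and MTND2P28. In PC3 MTATP6P1 had 2273 ± 54.0 CPM with NSI and 2219.6 ± 133 CPM with siFOXA1, MTCO1P12 2129.9 ± 139 CPM with NSI and 1895 ± 367 CPM with siFOXA1 and MTND2P28 1948 ± 324 CPM with NSI and 2079 ± 23.2 CPM with siFOXA1, and none passed (adjusted p = 0.790, 0.386 and 0.602). Lower copies did: of the 52 copies tested in PC3 11 fell and 2 rose, against 12.1% and 15.0% of all genes, and 23 fell and 3 rose with the replicate block, against 21.0% and 21.7%. Their median log2 fold change was -0.65. In the chromosome 1 run MTND1P23, a copy of MT-ND1, fell from 214 ± 71.3 to 122 ± 19.0 CPM (-0.82 ± 0.22, adjusted p = 0.0237), and MTCO2P12, a copy of MT-CO2, fell from 124 ± 12.6 to 93.8 ± 14.7 CPM (-0.40 ± 0.13, adjusted p = 0.0484), while MT-ND1 and MT-CO2 themselves did not pass. Both copies were named after their values were seen.

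In VCaP 10 of the 35 copies tested rose, against 22.5% of all genes, with a median log2 fold change of 0.48. MTCO1P12 rose, from 256 ± 18.5 to 345 ± 20.4 CPM (log2 fold change 0.43 ± 0.08, adjusted p = 0.00162), close to the 0.41 of MT-CO1 itself. MTATP6P1 also rose there (0.25 ± 0.08, adjusted p = 0.0351), while MTND2P28 had -0.02 ± 0.07. Of the counts of a gene and its copies together, the copies held 15.4% to 20.1% for MT-ATP6, 12.3% to 15.8% for MT-ND2 and 5.70% to 8.34% for MT-CO1 across the PC3 libraries, and medians of 13.1%, 13.9% and 10.8% across VCaP. For the other mRNAs and MT-RNR2 the median was at most 3.31%, and MT-RNR1 had no copy in the tables. The levels of MT-ATP6, MT-ND2 and MT-CO1 are therefore uncertain by about these amounts. With each copy's counts added to its gene, MT-CO1 still rose in VCaP (0.41 on the log2 scale). Nuclear copies of tRNA genes were not looked for, so that alternative left the tRNA counts as they were.

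The nuclear genes that serve the mitochondrial genome were followed in lists of gene families. Their counts stand against 12.1% of all genes called lower and 15.0% called higher in PC3, 21.0% and 21.7% there with the replicate block, and 23.3% and 22.5% in VCaP. Calls in either direction covered 27.0% of all genes in PC3 and 45.8% in VCaP. The ribosomal proteins of the organelle were the largest group. Of the 82 mitoribosome proteins 28 fell in PC3 and 39 in VCaP, where 4 rose, and the median log2 fold changes were -0.32 and -0.19, beside 0.02 and 0.02 over all genes. With the PC3 replicate block 64 of the 82 fell and 1 rose, against 21.0% and 21.7% of all genes. MRPS7, a protein of the small subunit, fell in both lines (-0.98 ± 0.12, adjusted p = 0.000819 in PC3, and -0.30 ± 0.06, adjusted p = 0.00290 in VCaP), as did MRPS10 (-0.46 ± 0.07, adjusted p = 0.00296, and -0.94 ± 0.08, adjusted p = 1.42e-05). MRPS6, of the same subunit, rose in VCaP (1.06 ± 0.09, adjusted p = 1.17e-05) and had -0.33 ± 0.16, adjusted p = 0.153 in PC3 (0.00521 with the block and 0.00521 to 0.372 over the alternatives). Proteins of the small subunit assemble on MT-RNR1, which had log2 fold changes of 0.28 ± 0.12 and 0.35 ± 0.08.

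Of the 9 transcription genes 3 fell and 1 rose in PC3 (5 fell with the block), and 2 fell and 3 rose in VCaP. The list had 44.4% of its genes called in PC3, against 27.0% of all genes, and 55.6% in VCaP, against 45.8%. TFAM, which packages mitochondrial DNA and starts its transcription, fell in both lines: -0.62 ± 0.10, adjusted p = 0.00230 in PC3, and -0.77 ± 0.07, adjusted p = 1.68e-05 in VCaP. TFB2M, which opens the promoter with it, fell in PC3 (-0.45 ± 0.09, adjusted p = 0.00679) and had -0.18 ± 0.07, adjusted p = 0.0553 in VCaP. POLRMT, the RNA polymerase of the organelle, had -0.29 ± 0.14, adjusted p = 0.159 in PC3 (0.00672 with the block and 0.00672 to 0.356 over the alternatives) and -0.11 ± 0.08, adjusted p = 0.307 in VCaP. In VCaP TFB1M, a methyltransferase of MT-RNR1, rose (0.77 ± 0.08, adjusted p = 7.1e-05), and MTERF4, a factor of ribosome assembly, fell (-0.85 ± 0.07, adjusted p = 1.25e-05). MTERFD3, also called MTERF2, rose in both lines (0.46 ± 0.14, adjusted p = 0.0425 in PC3, and 0.23 ± 0.07, adjusted p = 0.0179 in VCaP). Its call held in 10 of the 15 alternatives in each line.

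Of the 21 genes of RNA processing and stability 11 fell and 1 rose in PC3 (14 and 2 with the block), and 7 fell and 1 rose in VCaP. In PC3 57.1% of them were called, against 27.0% of all genes, and in VCaP 38.1%, below the 45.8% of all genes. LRPPRC and its partner C14orf156, known as SLIRP, hold mitochondrial mRNAs stable, and both fell in PC3 (-0.44 ± 0.10, adjusted p = 0.0143, and -0.48 ± 0.13, adjusted p = 0.0282) without passing in VCaP (-0.18 ± 0.08, adjusted p = 0.104, and 0.01 ± 0.08, adjusted p = 0.901). PNPT1 and SUPV3L1 form the complex that degrades mitochondrial RNA. PNPT1 rose in PC3 (0.65 ± 0.09, adjusted p = 0.00108) and fell in VCaP (-0.36 ± 0.06, adjusted p = 0.00111), and SUPV3L1 fell in PC3 (-0.49 ± 0.08, adjusted p = 0.00302) and had 0.00 ± 0.09, adjusted p = 0.997 in VCaP. FASTKD1, of a family that binds these RNAs, fell in PC3 (-0.55 ± 0.12, adjusted p = 0.0118) and rose in VCaP (0.32 ± 0.08, adjusted p = 0.0103). REXO2, which clears short RNA fragments, fell in VCaP (-1.12 ± 0.07, adjusted p = 1.88e-06) and had -0.17 ± 0.11, adjusted p = 0.278 in PC3 (0.0369 with the block and 0.0369 to 0.556 over the alternatives).

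Of the 15 genes of mitochondrial DNA maintenance 3 fell and 1 rose in PC3 (5 and 2 with the block), and 4 fell and 2 rose in VCaP. The called shares of 26.7% and 40.0% were not above the 27.0% and 45.8% of all genes. POLG, the DNA polymerase, passed in neither line (-0.11 ± 0.08, adjusted p = 0.338 in PC3, and -0.19 ± 0.08, adjusted p = 0.0832 in VCaP), and TWNK, the helicase, fell in PC3 (-0.53 ± 0.08, adjusted p = 0.00228). TK2, a kinase that supplies nucleotides, rose in PC3 (0.70 ± 0.08, adjusted p = 0.000487). In VCaP RRM2B, of ribonucleotide reductase, rose (0.63 ± 0.07, adjusted p = 0.000110) and the topoisomerase TOP3A fell (-0.47 ± 0.06, adjusted p = 0.000131). Among 9 regulators of mitochondrial biogenesis 6 fell in PC3 (8 with the block) and 2 fell and 2 rose in VCaP, called shares of 66.7% and 44.4%, of which the second was not above that of all genes. MYC fell in PC3 (-1.19 ± 0.09, adjusted p = 3.86e-05), GABPB1, a subunit of the factor NRF2, fell in both lines (-0.45 ± 0.08, adjusted p = 0.00513, and -0.46 ± 0.07, adjusted p = 0.000804), and PPARGC1B, a coactivator of respiratory genes, fell in PC3 (-0.64 ± 0.17, adjusted p = 0.0229) and rose in VCaP (0.95 ± 0.13, adjusted p = 0.000345). Of 19 mitochondrial tRNA synthetases, which charge these tRNAs, 9 fell in PC3 (10 with the block), and 9 fell and 2 rose in VCaP, called shares of 47.4% and 57.9%. WARS2, for tryptophan, and NARS2, for asparagine, fell in both lines (in PC3 -0.62 ± 0.09, adjusted p = 0.00150, and -0.37 ± 0.09, adjusted p = 0.0159; in VCaP -0.21 ± 0.07, adjusted p = 0.0392, and -0.71 ± 0.07, adjusted p = 2.49e-05). RARS2, for arginine, fell in PC3 (-0.26 ± 0.08, adjusted p = 0.0405) and rose in VCaP (0.33 ± 0.06, adjusted p = 0.00131).

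The nuclear partners of the 13 encoded proteins were set beside them by complex. In PC3 the called share was 10.8% for complex I, below the 27.0% of all genes, and 33.3%, 36.4% and 33.3% for complex III, complex IV and ATP synthase. In VCaP it was 29.7% for complex I, 45.5% for complex IV and 33.3% for ATP synthase, none of them above the 45.8% of all genes, and 66.7% for complex III. Median log2 fold changes in PC3 were -0.24 for complex I, -0.36 for complex III, -0.45 for complex IV and -0.39 for ATP synthase. They stood beside 0.02 over all genes tested, and 34 of the 37 complex I values were negative and 3 positive. In complex I 4 of 37 nuclear subunits fell in PC3, led by NDUFV3 (-0.38 ± 0.09, adjusted p = 0.0132), and 21 did with the block, where 1 rose, while in VCaP 9 fell, led by NDUFC2 (-0.64 ± 0.06, adjusted p = 4.57e-05), and 2 rose, led by NDUFB5 (0.25 ± 0.06, adjusted p = 0.0107). In complex III 3 of 9 fell in PC3 (9 with the block), and 4 fell and 2 rose in VCaP. UQCRFS1, the iron-sulfur subunit, fell in both lines (-0.58 ± 0.12, adjusted p = 0.00964, and -0.36 ± 0.06, adjusted p = 0.00114), and UQCR10 rose in VCaP (0.26 ± 0.06, adjusted p = 0.00453). In complex IV 4 of 11 fell in PC3 (11 with the block), and 3 fell and 2 rose in VCaP. COX7A2 and COX8A fell in both lines (in PC3 -0.58 ± 0.18, adjusted p = 0.0439, and -0.63 ± 0.18, adjusted p = 0.0347; in VCaP -0.88 ± 0.06, adjusted p = 4.3e-06, and -0.23 ± 0.08, adjusted p = 0.0450), and COX7B rose in VCaP (0.24 ± 0.06, adjusted p = 0.0125). These are partners of MT-CO1 and MT-CO2, which rose in VCaP. In ATP synthase 6 of 18 fell in PC3 (14 with the block) and 6 in VCaP. ATP5B, the catalytic beta subunit now called ATP5F1B, fell in both lines (-0.41 ± 0.08, adjusted p = 0.00646, and -0.54 ± 0.08, adjusted p = 0.000478), and ATPIF1, its inhibitor, fell in VCaP (-0.49 ± 0.07, adjusted p = 0.000235). Complex II has no mitochondrially encoded subunit. Of its 4 nuclear subunits SDHA rose (0.39 ± 0.11, adjusted p = 0.0301) and SDHD fell in PC3 (-0.49 ± 0.09, adjusted p = 0.00590), where SDHB had -0.38 ± 0.12, adjusted p = 0.0510 (0.000870 with the block and 0.000870 to 0.189 over the alternatives), and SDHB fell in VCaP (-0.60 ± 0.06, adjusted p = 5.24e-05).

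**Figure D5:**
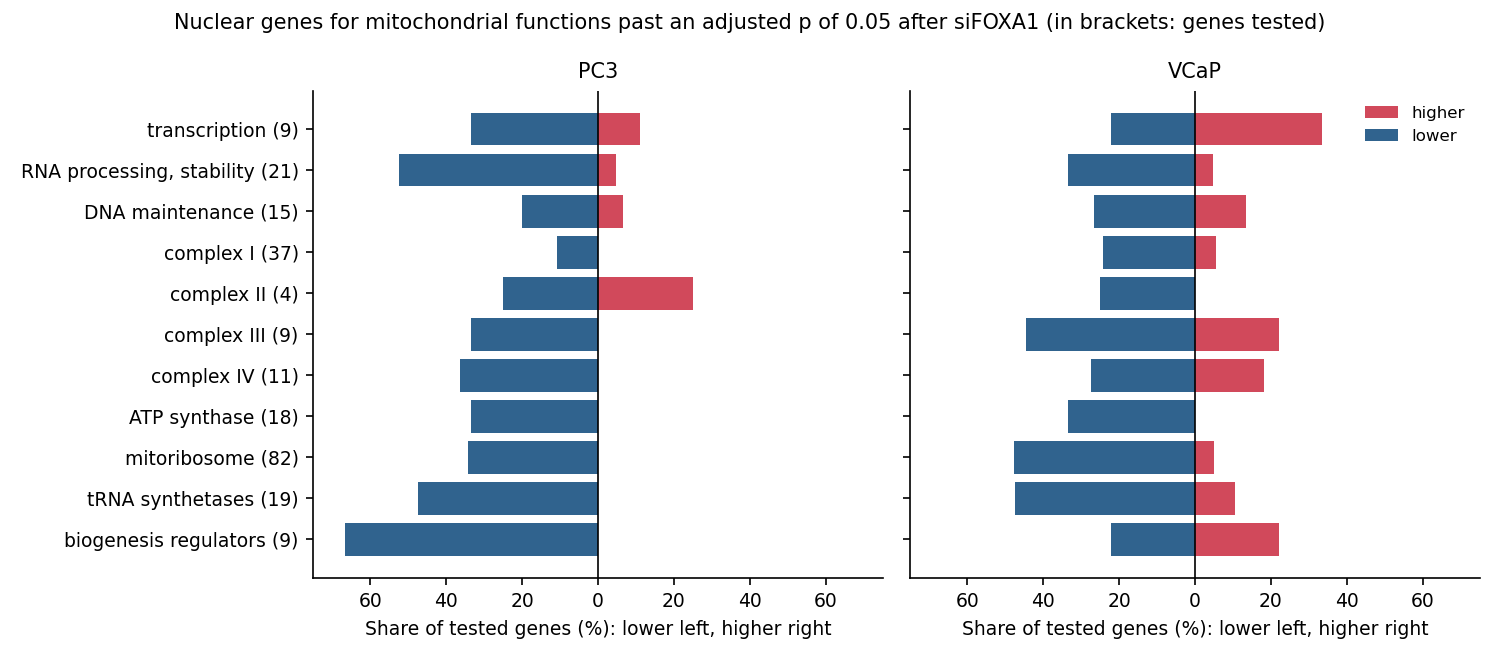
Share of tested genes, in percent, that passed an adjusted p of 0.05 as lower (bars to the left) and higher (bars to the right) in 11 lists of nuclear genes for mitochondrial functions, in PC3 (left) and VCaP (right), with the number tested in brackets. The 82 mitoribosome genes have 28 that fell in PC3 and 39 in VCaP, and the called shares of all genes are 12.1% lower and 15.0% higher in PC3 and 23.3% and 22.5% in VCaP.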

How the data were processed

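The authors deposited 1 table per library of estimated counts per gene. Per the file headers these were made with featureCounts 2.0.0, which counted read pairs with both ends mapped, let reads with several alignments or several overlapping genes count in fractions, and used the GENCODE 28 basic annotation on GRCh37. Per the same headers strand was ignored in PC3 and reverse strand required in VCaP. The submitters' processing notes name STAR 2.7.3a, featureCounts and Subread 2.0.0. Between 54.8% and 75.2% of a library's counts above 0 were not whole, so counts were rounded for the tests. Depth is given as library totals in the text; fractional counts of reads without molecular identifiers give no interval of their own.

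Each line was fitted by itself with edgeR 4.0.16 (R 4.3.3; quasi-likelihood test, TMM, filterByExpr with a minimum count of 10 and total of 15), with Benjamini-Hochberg adjustment over all 26435 genes tested in PC3 and 22925 in VCaP, and the difference between lines was tested over 12 libraries. All 37 mitochondrial genes passed the filter in both lines. Adjusted p-values in the text are from edgeR unless another tool is named, and the values after ± in log2 fold changes are standard errors. Shares are percentages of the deposited counts and were compared with exact two-sided permutation tests (SciPy 1.17.1). The fit was tested on simulated data first. Replicate libraries differed by more than sampling noise, so none was counted as a repeat.

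In PC3, same-numbered libraries deviated together from their group means (r = 0.45, 0.59 and 0.25 over 16613 genes at a mean CPM of 1 or more), so the number was treated as a pairing found in the data, with the fit without it as the main one. The third pair was weak, with r = 0.095 over all 26435 genes tested. Over the 16613 genes NSI replicate 1 and siFOXA1 replicate 3 had r = 0.35, above the third pair. The members and lists were chosen with earlier results of these data known. All mRNAs and rRNAs were named, with the 3 most abundant tRNAs per line and the 3 tRNA calls of smallest adjusted p in each direction, the nuclear gene of smallest adjusted p in each direction per list and line, 8 nuclear genes always, and the 3 most abundant nuclear copies per line. Base composition is from the GRCh37 genome, where all 37 genes lie at the tables' coordinates, and nuclear copies were recognised by gene ID through a later GENCODE release. Some markers and sequences are not reported here, and the marker sums leave those markers out. Alternatives were DESeq2 1.42.0, other scaling (DESeq2 size factors, library size alone, upper quartile, nuclear genes alone), no filter, the replicate block, copies added to their genes, a fit of all 12 libraries and the omission of each library.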

Additional observations from a re-analysis of the deposited data

Results flagged for a closer look

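For 6 of the 37 genes the effect of siFOXA1 differed between VCaP and PC3 in edgeR's test of the difference. Of all genes tested 22.2% differed, so this count was not above the background. Kit, strand setting, dose and medium differ with the line and cannot be told apart from it. MT-TH had log2 fold changes of -1.81 in PC3 and 0.05 in VCaP, and the difference was 1.87 (past the threshold in 19 of the 19 alternatives, with adjusted p = 9.69e-06 to 0.0487). MT-TI had -1.86 in PC3 and -0.12 in VCaP, a difference of 1.75 (18 of the 19 alternatives, with adjusted p = 1.06e-05 to 0.0511). MT-TM had -0.59 in PC3 and 0.37 in VCaP, a difference of 0.98 (17 of the 19 alternatives, with adjusted p = 0.00286 to 0.0508). MT-TF, the tRNA that rose in PC3, had 0.69 in PC3 and -0.08 in VCaP, a difference of -0.75 (19 of the 19 alternatives, with adjusted p = 0.000778 to 0.0265). MT-ND3 had -0.33 in PC3 and 0.28 in VCaP, a difference of 0.63 (18 of the 19 alternatives, with adjusted p = 0.00152 to 0.0604). MT-CO2 had 0.04 in PC3 and 0.60 in VCaP, a difference of 0.58, and passed in fewer of them (9 of the 19 alternatives, with adjusted p = 0.00407 to 0.124).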

How the results depend on the processing

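With the replicate block, calls over all PC3 genes went from 7149 to 11297, PC3 mRNA calls from 1 to 2 and PC3 rRNA calls from 0 to 2, and the PC3 tRNA count stayed within 1.5 times. VCaP numbers do not pair the libraries (r = 0.11, 0.03 and 0.39), and not every library correlated best with its own number in either line. Under a replicate block VCaP had 8 mRNA calls in place of 4 and 1 tRNA call in place of 0, with 11482 of all 22925 genes called. PC3 mRNA calls were 0 with library size alone and 0 in the fit of 12 libraries, where 7137 of 26435 and 9080 of 30425 genes passed. VCaP mRNA calls were 2 with library size alone, 7 with no filter and 2 in the fit of 12 libraries, and calls on the difference between lines were 10 with no filter in place of 6. Over all genes 9977 of 22925, 11386 of 44261 and 8531 of 30425 were called in those VCaP fits. For the difference between lines with no filter 6537 of 51822 passed. Omitting each library in turn gave 3945 to 7592 calls over all PC3 genes (lowest without siFOXA1 replicate 1), 0 to 1 PC3 mRNA, 6 to 11 PC3 tRNA (12 with all libraries), 2 to 5 VCaP mRNA and 0 to 1 VCaP tRNA calls, and 3 to 7 calls on the difference between lines. Differences in share, siFOXA1 minus NSI in percentage points, then ran from -0.249 to 1.03 for all PC3 mitochondrial genes, -0.389 to 0.808 for PC3 mRNA and -0.000216 to 0.000538 for VCaP tRNA. The causes of these moves were not tested. Among uncalled PC3 genes the log2 fold change turned sign for MT-ND2 (0.038 with library size alone, 0.0063 with upper-quartile factors), MT-CO1 (-0.021 with DESeq2 size factors, -0.030 with no filter, -0.021 with DESeq2, -0.043 with nuclear copies added), MT-ND4L (0.042 with library size alone, 0.0078 with upper-quartile factors, 0.033 with replicate block), MT-ND4 (0.034 with library size alone, 0.0012 with upper-quartile factors) and MT-ND5 (-0.0062 with DESeq2 size factors, -0.017 with no filter, -0.0062 with DESeq2, -0.018 with nuclear copies added). Omitting a library turned the sign of further values that had passed no threshold, with ranges of MT-TV -0.033 to 0.42, MT-TL1 -0.37 to 0.0097, MT-ND2 -0.084 to 0.068, MT-TY -0.034 to 0.17, MT-CO1 -0.063 to 0.066, MT-CO2 -0.050 to 0.095, MT-ND4L -0.25 to 0.23, MT-ND4 -0.11 to 0.11, MT-ND5 -0.14 to 0.24 and MT-ND6 -0.25 to 0.0067 in PC3 and MT-TF -0.20 to 0.020, MT-TV -0.15 to 0.26, MT-TL1 -0.11 to 0.15, MT-TI -0.29 to 0.026, MT-TQ -0.30 to 0.24, MT-ND2 -0.053 to 0.079, MT-TY -0.085 to 0.39, MT-TS1 -0.29 to 0.047, MT-TH -0.19 to 0.37, TWNK -0.16 to 0.046 and C14orf156 -0.042 to 0.080 in VCaP. The split of tRNA genes by strand, and the grouping by position built on it, were chosen after seeing the data. With 3 libraries a group, a single library decided several calls, the exact permutation tests of shares cannot go below p = 0.1, and VCaP tRNA genes had few counts.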

Other observations

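Grouped by annotated strand, the tRNA genes held different portions of the counts in each line. PC3 counting ignored strand, so reads over a minus-strand tRNA gene there can come from either precursor. The orders of the lines are therefore not comparable as levels of tRNA from each strand. With NSI the 8 minus-strand tRNA genes held 0.198 ± 0.0178% of all PC3 counts, and the 14 plus-strand genes 0.0685 ± 0.0140% (SD, n = 3). In VCaP, where strand was used in counting, the minus-strand genes held 0.000997 ± 8.47e-05% and the plus-strand genes 0.00516 ± 0.000806%, the reverse order. MT-CO3 as a portion of the VCaP mRNA pool went from 28.4 ± 2.41% to 22.7 ± 1.22% after siFOXA1, beside 6.59 ± 0.458% to 8.68 ± 1.22% for MT-CO2, values given without a test.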
